A study of Mus musculus with 12 samples.

Results

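The 48 genes described here encode parts of cilia and of the sperm tail: axonemal dynein chains, the dynein-2 motor, radial spoke proteins, tektins, intraflagellar transport proteins and Bardet-Biedl syndrome proteins. They were chosen by symbol alone, as genes whose names begin with Dnah, Dnai, Dnal, Dync2, Rsph, Tekt, Ift or Bbs, with a single exception that the rule leaves out. No measured value entered the choice. They were 48 of the 20620 genes in the deposited count table. By role they were 5 outer arm heavy chains, 6 inner arm heavy chains, 3 light chains, 5 radial spoke proteins, 5 tektins, 2 subunits of dynein-2, 3 proteins of transport complex A, 11 of transport complex B and 8 Bardet-Biedl proteins.

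The data came from testes of C57BL/6 mice at postnatal day 16 that were either heterozygous (Mael+/-) or homozygous (Mael-/-) for a mutation of Mael, which encodes a germ cell protein needed to silence transposons. The controls thus carried the mutant allele too, and no wild-type testes were compared here. Total RNA and ribosome footprints were sequenced from 3 extracts of each genotype, which gave 12 libraries in 4 groups of 3. All testes were collected in cycloheximide, a drug that holds ribosomes on the mRNA. The labels do not say how many animals an extract held or give a batch, so the p-values measure the spread between these extracts. Whole testis is a mixture of germ cells and somatic cells, and in such bulk samples fewer cells of a type and less RNA per cell cannot be told apart.

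Motile cilia and sperm tails are built on the axoneme, a ring of microtubule doublets around a central pair. Outer and inner dynein arms are the motors that slide the doublets, radial spokes relay signals from the central pair to the arms, and tektins line the doublets. Intraflagellar transport carries these parts, with complex B and kinesin moving outward and complex A and dynein-2 moving back, and the Bardet-Biedl proteins form a coat that moves membrane proteins in and out of cilia. Nearly all cells with a primary cilium use the transport and Bardet-Biedl proteins. Axonemal dyneins, spokes and tektins belong to motile cilia and flagella, and in the testis their genes come on during meiosis and in spermatids, before the tail is assembled.

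Many ciliary genes carry an X-box, the sequence that transcription factors of the RFX family bind, near their start. The core letters GTTGCC were searched on both strands of RefSeq promoter windows of 300 bases, from 250 before to 50 after a transcript start. Windows were found for 43 of the 48 genes, 46 in all. Of these, 17 (37.0%) held the core, against 12.5% of 32851 windows of all genes. The longer X-box, searched as GTTNCC and GNAAC (N is any base) with a spacer of 2 or 3 bases and overlapping the core where its N is G, was found in 7 member windows (15.2%), of Bbs7, Dnah9, Ift57, Rsph3b, Tekt2 and Tekt4, and in 1.47% of all windows. A match is a description of letters and not a measured binding site. Sequences upstream of a transcript start are shown for the genes on which the results below turn or that hold the core in several copies, 5′ to 3′ on the strand of the gene (GRCm38.p6), with the core or its reverse complement in capitals. Tekt1 lies at chr11:72361883-72361937 with 2 cores in opposite orientations, Tekt2 at chr4:126325689-126325804, Dnah7a at chr1:53706959-53707004, Dnah7b at chr1:46066670-46066715, Ift57 at chr16:49699187-49699259 and Dnah10 at chr5:124725045-124725084, where another core follows the start. The sequences of Tekt1, Dnah7a and Dnah7b lie within the annotated span of the gene, before a transcript start inside it. The windows of Dnah6 and Dnah8 did not hold these letters.
Tekt1: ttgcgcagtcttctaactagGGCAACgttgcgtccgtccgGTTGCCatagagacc
Tekt2: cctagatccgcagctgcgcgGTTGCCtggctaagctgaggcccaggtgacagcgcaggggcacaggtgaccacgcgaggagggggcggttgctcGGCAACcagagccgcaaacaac
Dnah7a: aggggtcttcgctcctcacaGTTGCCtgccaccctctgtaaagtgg
Dnah7b: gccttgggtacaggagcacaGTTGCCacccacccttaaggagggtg
Ift57: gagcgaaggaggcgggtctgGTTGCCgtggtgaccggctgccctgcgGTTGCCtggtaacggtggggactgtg
Dnah10: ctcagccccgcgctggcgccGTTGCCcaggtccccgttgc

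Gene counts totalled 13697267 to 27462358 per RNA library and 7609932 to 13233565 per footprint library. Mael had 3800 to 5045 counts in the Mael+/- RNA libraries and 0 to 2 in the Mael-/- RNA libraries. Of 9 round spermatid genes, Prm1 and Tnp2 had no count in any of the 12 libraries, whereas Spaca1, which encodes an acrosome protein, had 4.86 to 6.85 CPM in RNA. Replicate 1 of Mael+/- stood apart in both assays. A list of 14 pachytene spermatocyte genes summed to 1198 CPM (counts scaled to equal library totals) in RNA of that replicate, 415 and 435 CPM in the other Mael+/- libraries and 352 to 404 CPM in Mael-/- libraries. In footprints the sums were 1340, 397 to 463 and 351 to 393 CPM, respectively. The sum of 8 Sertoli cell genes ran from 6214 to 7323 CPM over the 6 RNA libraries, with replicate 1 of Mael+/- the lowest. Of 10 genes listed for multiciliated epithelium, the other cells that build motile cilia, 8 were in the table and summed to 38.9 to 46.7 CPM in RNA, most of it from Tppp3. Fold changes between genotypes that moved by over 1.5 times when Mael+/- replicate 1 was left out are given with and without it.

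The 48 genes took 0.184% of gene counts in RNA of Mael+/- replicate 1 and 0.118% to 0.126% in the other RNA libraries. In footprints they took 0.209% in that replicate and 0.133% to 0.138% elsewhere. Every gene had at least 1 count, but Rsph4a, Tekt3 and Tekt4 were too low for the main edgeR test in any comparison. Rsph6a and Tekt5 passed the filter on low counts in RNA only, and Dnali1 did not pass it in the footprint comparison. This left 45 genes tested in RNA and 42 in footprints. The DESeq2 fits were run without this filter and held all 48 genes.

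**Figure D1:**
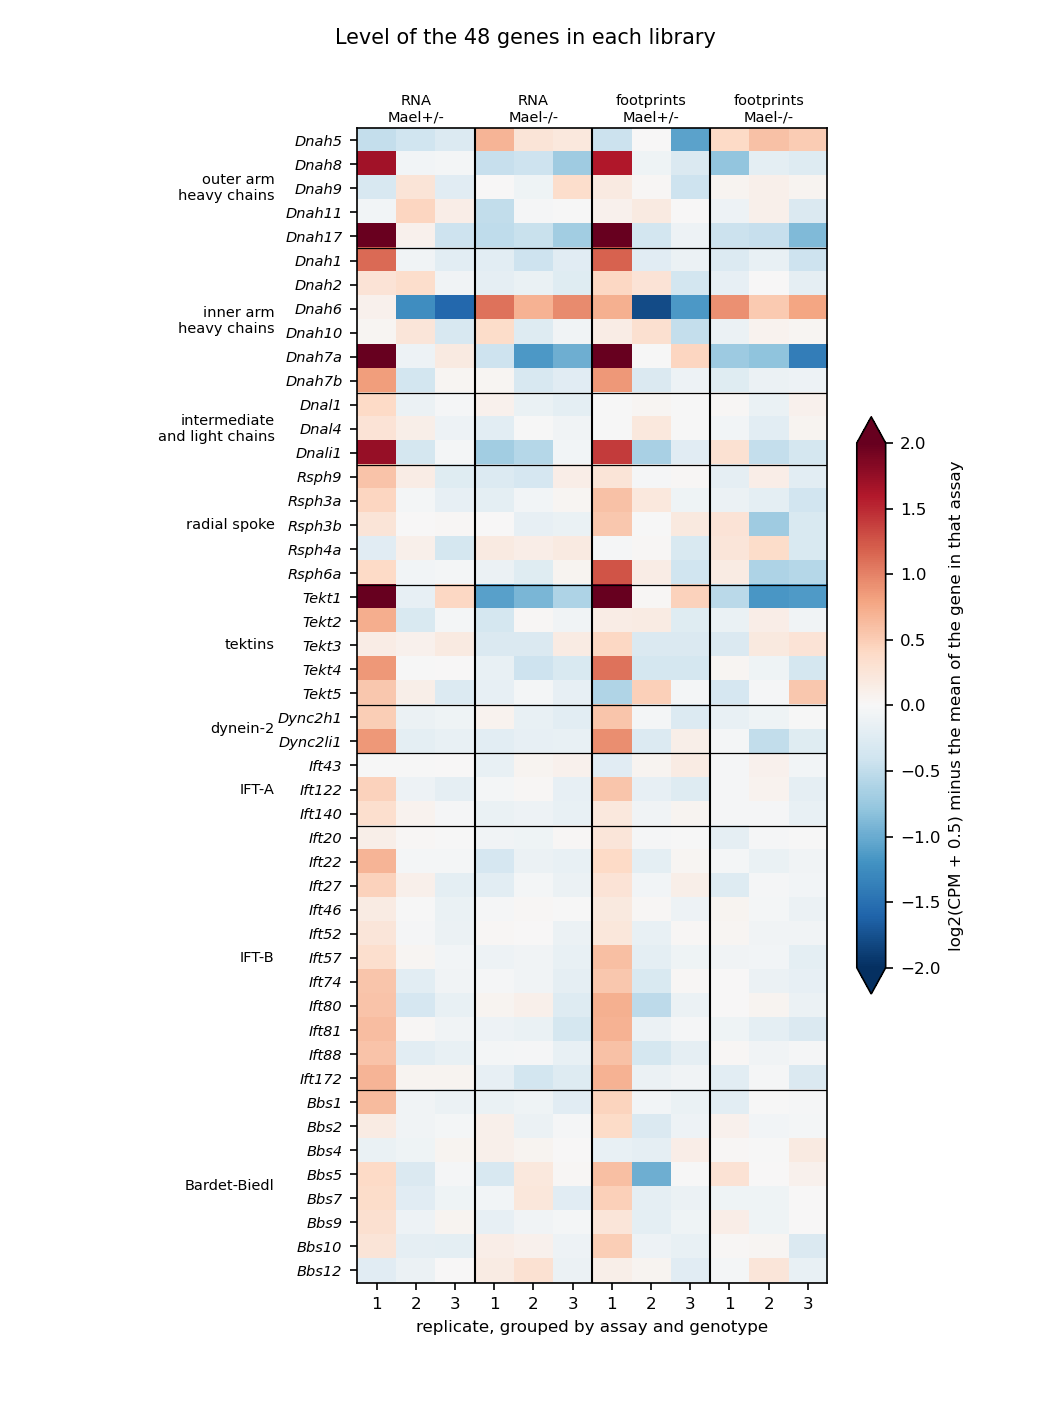
Level of each of the 48 genes (rows, by role) in the 12 libraries (columns, replicates 1 to 3 of each group), as log2(CPM + 0.5) minus the mean of the gene within that assay. The first Mael+/- column is red for most genes in both assays, with Dnah8, Dnah17, Dnah7a and Tekt1 far above their means, and Dnah6 is blue in replicates 2 and 3 of Mael+/- and red in Mael-/-.

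Transport genes had more RNA per length than axonemal heavy chains. RNA level is given here as CPM per kilobase of exon, as the mean ± SD of 3 Mael+/- libraries. Ift43, a complex A protein, stood at 62.1 ± 0.55 and Ift20, a complex B protein that also works at the Golgi, at 43.6 ± 2.14. Over the 11 complex B genes the means ran from 9.77 (Ift57) to 43.6, with Ift74 at 29.2 ± 8.69 and Ift88 at 20.6 ± 6.64. The Bardet-Biedl genes ran from 4.22 (Bbs12, a chaperonin-like protein) to 25.6 ± 3.96 (Bbs9, a subunit of the coat). The dynein-2 heavy chain Dync2h1 stood at 9.05 ± 2.27 and its light intermediate chain Dync2li1 at 14.6 ± 6.77, which overlapped within their SDs.

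The axonemal heavy chains lay between 0.0751 and 4.95 CPM per kilobase of exon. Dnah8, an outer arm chain known for sperm, was the highest at 4.95 ± 3.76, and Dnah7b, an inner arm chain, followed at 3.67 ± 1.63, with a gap smaller than either SD. Dnah5, Dnah9 and Dnah11, outer arm chains known from airway cilia, stood at 0.117 ± 0.0102, 0.163 ± 0.0452 and 0.286 ± 0.0552. The lowest heavy chain was Dnah6, of the inner arms, at 0.0751 ± 0.0748, and its interval overlapped those of Dnah5 and Dnah9. Among the light chains Dnal4 reached 25.5 ± 3.43, within the range of the transport genes, whereas Dnali1, the light intermediate chain of the inner arms, stood at 1.38 ± 1.36.

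Rsph3a (5.57 ± 1.34), Rsph3b (4.95 ± 0.502) and Rsph9 (3.92 ± 1.26) had the most RNA per kilobase of exon among the spoke genes, and Tekt1 (4.08 ± 4.2) among the tektins. Rsph4a, a spoke head protein, was the lowest of the 48 genes at 0.0207. As footprint CPM per kilobase of coding sequence in Mael+/-, Ift43 stood at 80.7 ± 10.7 and Ift20 at 71.1 ± 7.53, and the heavy chains ran from 0.128 (Dnah6) to 7.84 (Dnah8).

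Some of these counts are uncertain because the gene has a near copy. Exons were searched in windows of 75 bases, the read length of the RNA libraries, and coding sequence in windows of 30 bases, about the length of a footprint, for letters that occur more than once in the genome. For Rsph3a and Rsph3b, which encode versions of the spoke protein RSPH3 on chromosome 17, 64.2% and 78.2% of exon windows and 84.2% and 98% of coding windows recurred. For Dnah7a and Dnah7b on chromosome 1 the shares were 27.7% and 34.5% of exon windows and 57.6% and 65.7% of coding windows. Among the other 44 genes no share exceeded 1.72% of exon windows or 4.59% of coding windows. How reads with several matches were counted is not given in the sources used here, so values of the 4 genes may mix copies. The strand setting is not given either, and exons of Rsph3a and Dnah11 overlapped genes on the other strand over 10.6% and 4.56% of their bases.

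The comparison of Mael-/- with Mael+/- asked whether expression of each gene differs when Mael is lost. No member passed the test in RNA (0 of 45, edgeR quasi-likelihood test, adjusted p under 0.05 over all genes), where 0.116% of all 14685 genes tested were called. At an unadjusted p under 0.05, 13 members were counted, 2 of them higher in Mael-/-, which was 28.9% of the members against 5.4% of all genes. The median log2 fold change of the members was -0.21 against -0.001 over all genes, and 37 of the 45 were lower in Mael-/-. The median was -0.02 without Mael+/- replicate 1, 25 of the 45 were lower, and 8 were counted at an unadjusted p under 0.05 (17.8%, against 6.41% of all genes). Genotypes did not overlap for 11 members lower in Mael-/- (24.4% of those tested, against 5.03% of all genes) and for 2 members higher in Mael-/- (4.44% against 5.23%). DESeq2 called 1 member, Dnah6 (0.372% of all genes), and edgeR without Mael+/- replicate 1 also called Dnah6 alone (0.43% of all genes). Without that replicate, 12 members lay lower in Mael-/- without overlap (26.7%, against 9.81% of all genes) and 4 higher (8.89%, against 10.3%). Leaving out a library cannot make a gene overlap, so the 11 lower and 2 higher members are among these by construction.

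The 2 genes with higher RNA in all Mael-/- libraries were heavy chains. Dnah6 had 2.04, 0.512 and 0.302 CPM in Mael+/- replicates 1 to 3 and 4.59, 3.37 and 4.08 CPM in Mael-/-. The genotypes did not overlap, and replicate 1 was the highest within Mael+/-. These rest on 8 to 47 counts in Mael+/- and 63 to 112 counts in Mael-/- for a gene that spans chr6:73017603-73222227. The log2 fold change was 2.10 (SE 0.54, 95% interval 0.90 to 3.30), with an adjusted p of 0.596 in edgeR and 0.0268 in DESeq2. Without Mael+/- replicate 1 the log2 fold change was 3.27 and the adjusted p 9.94e-05.

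Dnah5, located at chr15:28154854-28472045, had 1.69, 1.79 and 2.0 CPM in Mael+/- and 4.37, 3.12 and 3.03 CPM in Mael-/-. The groups did not overlap, and replicate 1 of Mael+/- did not stand apart for this gene. The log2 fold change was 0.92 (SE 0.23, 95% interval 0.40 to 1.44, edgeR adjusted p = 0.585), and without that replicate it was 0.86.

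The genes with the lowest fold changes were a tektin and heavy chains. Tekt1 (chr11:72344717-72362442) had 14.6, 2.08 and 3.36 CPM in Mael+/- and 0.873, 1.04 and 1.39 CPM in Mael-/-. All Mael-/- libraries lay below all Mael+/- libraries, and Mael+/- replicate 1 lay far above the other 2. Its log2 fold change was -2.55 (SE 0.67, 95% interval -4.04 to -1.06, edgeR adjusted p = 0.6). Without Mael+/- replicate 1 it was -1.26, with an adjusted p of 0.123.

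Dnah7a (chr1:53396995-53707301) showed 22.2, 3.29 and 4.15 CPM in Mael+/- and 2.55, 1.34 and 1.57 CPM in Mael-/-, again without overlap. Its log2 fold change was -2.47 (SE 0.69, edgeR adjusted p = 0.681), and -1.08 without Mael+/- replicate 1. Its near copy Dnah7b, with 67.6, 29.2 and 38.6 CPM in Mael+/- and 38.9, 30.1 and 32.0 CPM in Mael-/-, overlapped between genotypes. The log2 fold change of Dnah7b was -0.42 (SE 0.26), and -0.02 without that replicate.

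The sperm outer arm chains Dnah8 and Dnah17 had the same pattern. Dnah8 (chr17:30626935-30875762) had 136, 40.2 and 40.9 CPM in Mael+/- and 30.2, 31.4 and 25.4 CPM in Mael-/-. Its log2 fold change was -1.32 (SE 0.41, edgeR adjusted p = 0.758) with all libraries and -0.49 without Mael+/- replicate 1. Dnah17 (chr11:118021723-118130719) had 13.4, 3.26 and 2.15 CPM in Mael+/- and 1.97, 2.08 and 1.68 CPM in Mael-/-. The log2 fold change of Dnah17 was -1.71 (SE 0.60) and -0.52 without that replicate. For both genes the genotypes did not overlap, and the difference between Mael+/- replicate 1 and the other Mael+/- replicates exceeded that between those replicates and Mael-/-. Dnah2, an inner arm chain at chr11:69420807-69549108, had 24.4, 25.6 and 19.1 CPM in Mael+/- and 17.7, 18.3 and 16.8 CPM in Mael-/-, with a log2 fold change of -0.39 (SE 0.13).

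Other axonemal members overlapped between genotypes or differed by less. Dnali1 had 6.15, 1.06 and 1.44 CPM in Mael+/- and 0.728, 0.843 and 1.42 CPM in Mael-/-, with a log2 fold change of -1.46 (SE 0.63) and of -0.25 without Mael+/- replicate 1. The genotypes overlapped, and Mael+/- replicate 1 alone lay above the rest. The light chain Dnal4 had 42.5, 37.9 and 32.4 CPM against 30.2, 34.8 and 33.1 CPM in Mael-/-, and Dnal1, a light chain bound to an outer arm motor, had 30.8, 21.4 and 23.1 CPM against 24.7, 21.2 and 20.4 CPM. Both overlapped, with log2 fold changes of -0.20 (SE 0.12) and -0.19 (SE 0.15), and of -0.10 and -0.02 without Mael+/- replicate 1.

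The spoke gene Rsph3a had 13.9, 9.84 and 8.99 CPM in Mael+/- and 8.81, 9.76 and 10.5 CPM in Mael-/-, and its near copy Rsph3b had 8.93, 7.5 and 7.55 CPM against 7.5, 6.59 and 6.71 CPM. Rsph3a overlapped between genotypes, and the ranges of Rsph3b met at about 7.5 CPM, the Mael-/- range being the lower. Tekt2 had 2.08, 0.768 and 1.02 CPM in Mael+/- and 0.728, 1.09 and 0.985 CPM in Mael-/-, with overlap and a log2 fold change of -0.43 (SE 0.40), which was 0.09 without Mael+/- replicate 1. The heavy chains Dnah9, Dnah10 and Dnah11 had 1.82 to 2.96, 4.87 to 7.43 and 3.34 to 4.86 CPM in Mael+/- and 2.23 to 3.17, 5.1 to 8.08 and 2.33 to 3.43 CPM in Mael-/-. All of these overlapped between genotypes, with log2 fold changes of 0.22 (SE 0.27), 0.02 (SE 0.22) and -0.38 (SE 0.24). That of Dnah9 was 0.10 without Mael+/- replicate 1.

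**Figure D2:**
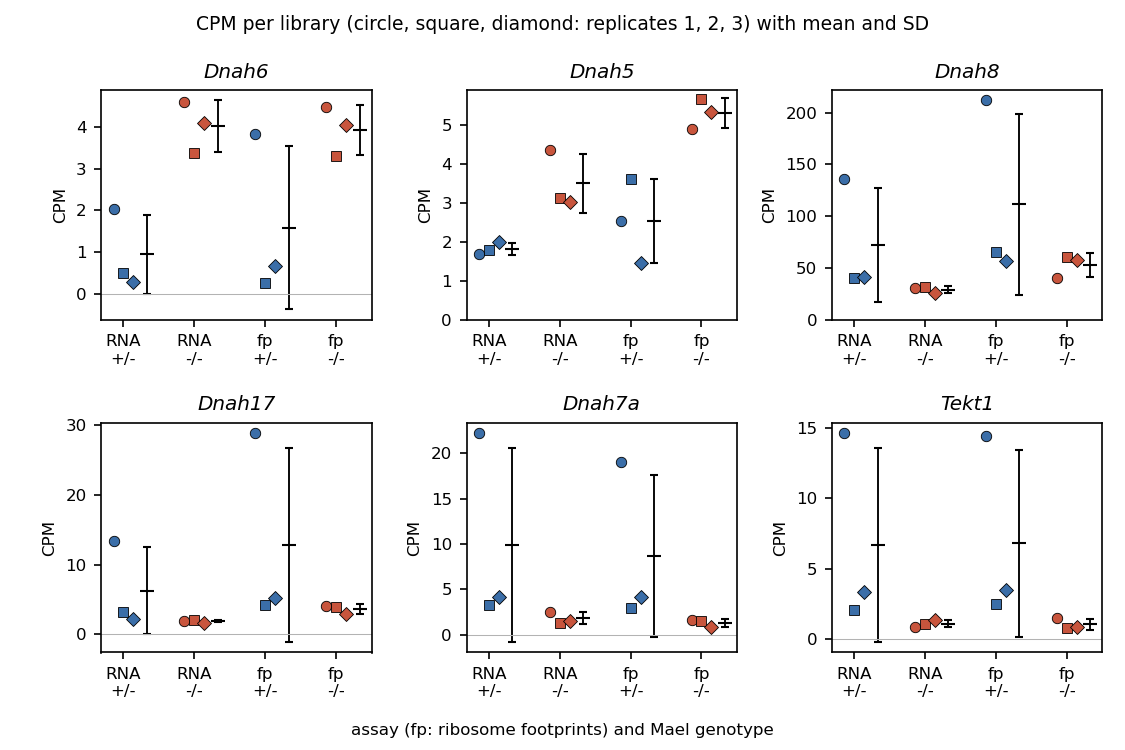
CPM of 6 members in each library, by genotype and assay, with circle, square and diamond for replicates 1, 2 and 3 and the mean ± SD of 3 libraries. Mael+/- replicate 1 lies apart for Dnah8, Dnah17, Dnah7a and Tekt1, whereas Dnah6 and Dnah5 are higher in the Mael-/- RNA libraries than in all Mael+/- RNA libraries.

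Transport and Bardet-Biedl genes, with dynein-2, had fold changes near 0. Of the 24, 23 had a log2 fold change within 0.5 of 0 in RNA, from -0.56 (Ift172, a complex B protein, -0.32 without Mael+/- replicate 1) to 0.25 (Bbs12), with a median of -0.16. Ift172 had 71.0, 45.7 and 46.0 CPM in Mael+/- and 39.3, 34.1 and 36.7 CPM in Mael-/-, without overlap, and an edgeR adjusted p of 0.707. Ift22, Ift57, Ift81 and Ift140 also lay lower in Mael-/- without overlap. Leaving out a Mael+/- library cannot make such genes overlap, so their place without Mael+/- replicate 1 was fixed in advance. Of all genes 5.03% lay lower without overlap with all libraries and 9.81% without that replicate. Ift88 and Bbs10 lay higher without overlap when it was left out, as 10.3% of all genes did. Without Mael+/- replicate 1 the median of the 24 genes was 0.02, and 10 rather than 20 were lower in Mael-/-.

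The motor of return transport, Dync2h1, had 165, 108 and 111 CPM in Mael+/- and 124, 106 and 102 CPM in Mael-/-, and Dync2li1 had 30.4, 14.2 and 14.8 CPM against 14.1, 14.5 and 14.7 CPM. For both, replicate 1 of Mael+/- was high and the other 5 libraries lay close together. The complex A gene Ift122 had 138, 93.3 and 87.9 CPM against 97.5, 102 and 89.0 CPM, and Ift140 had 108, 89.8 and 83.8 CPM against 77.7, 79.2 and 77.3 CPM. The genotypes overlapped for Ift122 and not for Ift140, whose log2 fold change was -0.26 (SE 0.10), and -0.15 without Mael+/- replicate 1. In complex B, Ift74 had 103, 60.6 and 66.7 CPM against 69.0, 66.4 and 61.7 CPM, and Ift88, without which cilia do not form, had 86.9, 50.3 and 52.8 CPM against 56.8, 57.6 and 53.0 CPM. Both overlapped through the lower Mael+/- replicates.

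Among the Bardet-Biedl genes, Bbs9 had 107, 79.4 and 89.0 CPM in Mael+/- and 76.8, 81.3 and 83.8 CPM in Mael-/-, and Bbs2 had 50.9, 42.9 and 44.0 CPM against 48.3, 41.5 and 44.4 CPM. Bbs12 had 9.45, 10.2 and 11.2 CPM against 12.5, 13.9 and 10.3 CPM, with replicate 1 the lowest of Mael+/-. All 3 overlapped between genotypes, and their log2 fold changes were -0.19 (SE 0.12), -0.04 (SE 0.11) and 0.25 (SE 0.15), and -0.06, 0.04 and 0.19 without Mael+/- replicate 1.

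Of the 21 axonemal members tested, the median log2 fold change in RNA was -0.39 with all libraries and -0.10 without that replicate, and 17 and 15 were lower.

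In footprints no member passed the test (0 of 42, edgeR, adjusted p under 0.05), where 0.0593% of 13500 genes were called. At an unadjusted p under 0.05, 7 members (16.7%) were counted, against 4.33% of all genes. The median log2 fold change was -0.17 over the members and -0.009 over all genes, and 35 of the 42 were lower in Mael-/-. The median was 0.006 without Mael+/- replicate 1 and 20 of the 42 were lower, and of 7 members counted at an unadjusted p under 0.05, 5 were higher in Mael-/- where 1 of 7 had been with all libraries. Without that replicate these 7 were 16.7% of the members, against 6.12% of all genes, of which 434 of 835 were higher. DESeq2 called 1 member, Tekt1 (0.149% of all genes), and edgeR without Mael+/- replicate 1 called 1 member, Dnah6 (0.125% of all genes).

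Dnah17, Dnah7a, Rsph3a and Tekt1 were lower in Mael-/- without overlap in footprints (9.52% of members tested, against 4.85% of all genes). Tekt1 footprints were 14.4, 2.46 and 3.51 CPM in Mael+/- and 1.51, 0.798 and 0.83 CPM in Mael-/-. Its log2 fold change was -2.64 (SE 0.64), with an adjusted p of 0.681 in edgeR and 0.00397 in DESeq2, and -1.46 without Mael+/- replicate 1. Dnah7a footprints were 19.0, 2.97 and 4.19 CPM in Mael+/- and 1.59, 1.5 and 0.83 CPM in Mael-/-, with a log2 fold change of -2.70 (SE 0.66) and of -1.43 without that replicate. In both genes Mael+/- replicate 1 was far above the rest. Dnah17 footprints were 28.8, 4.27 and 5.27 CPM against 4.09, 3.99 and 2.85 CPM (log2 fold change -1.80, SE 0.62, and -0.38 without Mael+/- replicate 1), and Rsph3a footprints were 7.0, 5.3 and 4.19 CPM against 4.09, 3.89 and 3.32 CPM (-0.53, SE 0.25, and -0.31 without it). The lowest Mael+/- value of each lay just above the highest Mael-/- value. Dnah8 footprints, at 212, 65.2 and 56.5 CPM against 40.0, 60.6 and 57.7 CPM, overlapped, with a log2 fold change of -1.09 (SE 0.42) and of -0.21 without Mael+/- replicate 1. Without Mael+/- replicate 1 the same 4 genes lay lower without overlap (9.52%, against 10.5% of all genes) and 7 members higher (16.7%, against 10.8%). That the 4 genes stayed was fixed in advance, since leaving out a library cannot make a gene overlap.

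With all libraries Dnah5 was the 1 member higher in Mael-/- without overlap in footprints (2.38% of members tested, against 4.24% of all genes). It had 2.55, 3.62 and 1.46 CPM in Mael+/- and 4.92, 5.69 and 5.34 CPM in Mael-/-, and the log2 difference was 1.09 with an SE of 0.30 (edgeR adjusted p = 0.754). Dnah6 footprints were 3.82, 0.259 and 0.683 CPM in Mael+/- and 4.47, 3.29 and 4.03 CPM in Mael-/-. Replicate 1 of Mael+/- lay within the Mael-/- range, and its counts in the other Mael+/- libraries were 2 and 7. The log2 fold change of Dnah6 was 1.27 (SE 0.59, edgeR adjusted p = 0.998) with all libraries and 2.96 (adjusted p = 0.0263) without Mael+/- replicate 1. The RNA and footprint libraries came from the same extracts, so these values are not an independent repeat.

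Mael+/- replicate 1 lay above the other libraries for most members. It had the highest level of the 6 RNA libraries for 36 of 45 members (80%), against 27.5% of all genes tested, and of the 6 footprint libraries for 32 of 42 members (76.2%, against 26.5%). On the log2(CPM + 0.5) scale the members' median difference between this replicate and the mean of the other Mael+/- replicates was 0.54 in RNA and 0.53 in footprints. It was 1.0 and 1.06 over the 11 heavy chains, and 0.56 and 0.58 over the 14 transport proteins. Dnah7a differed by 2.44 in RNA and 2.27 in footprints, Tekt1 by 2.25 and 2.12, Dnah17 by 2.14 and 2.48 and Dnah8 by 1.73 and 1.80. Dnah1, another inner arm chain, differed by 1.26 and 1.35.

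The pachytene marker sum was highest in the same replicate, as given above, and the sum of 9 early meiotic genes also was, at 1079 CPM against 530 to 712 CPM in the other RNA libraries. Much of it came from Sycp3 (431 CPM against 127 to 209 CPM) and Hormad1 (176 CPM against 44.1 to 92.0 CPM). Dmc1, Meiob and Spo11 were also highest there, whereas Rec8 was lowest (41.9 CPM) and Stra8, Prdm9 and Mei1 lay within the range of the other libraries. Of the multiciliated list, Tppp3 was lowest there in RNA (24.7 CPM against 30.5 to 37.1 CPM elsewhere), and the other 7 genes together were highest there (14.2 CPM against 9.63 to 12.5 CPM), among them Pifo at 3.73 CPM against 0.496 to 0.948 CPM. In footprints the other 7 genes summed to 8.49 CPM there and to 8.09 to 11.6 CPM elsewhere. The part of these differences in the members' values was not tested. Between Mael-/- and the other 2 Mael+/- replicates the members' median difference on that scale was -0.02 in RNA and 0.01 in footprints, with Dnah6 at 2.32 and 2.22, Dnah5 at 0.73 and 1.03, Tekt1 at -0.99 and -1.18 and Dnah7a at -0.89 and -1.19.

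**Figure D3:**
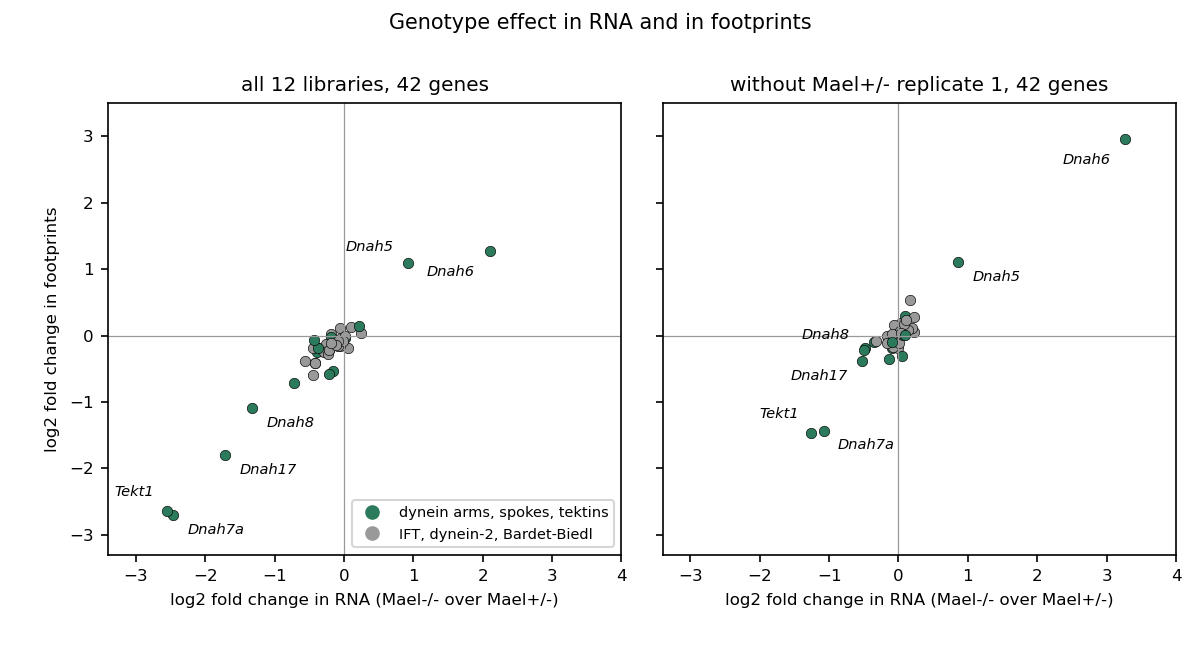
Log2 fold change of Mael-/- against Mael+/- in RNA (horizontal) and footprints (vertical) for the 42 members tested in both assays, with all 12 libraries and without Mael+/- replicate 1. Tekt1 and Dnah7a lie near -2.5 on both axes with all libraries and nearer to 0 without that replicate, while Dnah6 moves further up.

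Translation efficiency, the footprint level relative to the RNA level, asked whether the genotypes differ beyond RNA. No member passed the test for a difference of this ratio (0 of 42, edgeR interaction term, 0 of 13448 genes and 0.0% called, also with the extract as a block). At an unadjusted p under 0.05 no member was counted with or without the block. Of all genes 53 (0.394%) were counted without it and 279 (2.07%) with it, and DESeq2 called 0 genes. Both shares lay under the share that a threshold of 0.05 passes where nothing differs. The absence of calls therefore does not show that the ratios were alike. The median log2 difference of the members was 0.005, from -0.82 (Dnah6, SE 0.93) to 0.36 (Tekt2, SE 0.46). The SEs of these 2 differences exceeded the differences themselves. Without the footprint library of Mael+/- replicate 1 that of Dnah6 was 0.87, and without both libraries of that extract the differences were -0.30 and -0.08. Without the RNA library of that replicate alone, the lowest difference among the inner arm chains, which include Dnah6, was -1.99.

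Within each genotype, footprints and RNA of the same extracts were compared, relative to the middle of all genes. The main test did not pair the libraries of an extract, which the fit with the extract as a block does. In Mael+/- 14 of the 43 members tested passed the test, 7 higher and 7 lower in footprints, where 48.1% of all 14259 genes were called, 23.0% higher and 25.1% lower. In Mael-/- 27 of 43 passed, 17 higher and 10 lower, where 67.2% of all genes were called, 33.1% higher and 34.1% lower. With the extract as a block 31 members passed in each genotype, against 69.4% and 70.9% of all genes. The 14 genes of Mael+/- were called in Mael-/- as well.

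The 7 members higher in footprints in Mael+/- were 4 heavy chains, Tekt2, Dync2h1 and Ift172. Dnah2 and Dnah10, chains of the inner arms, had log2 ratios of 1.58 (SE 0.21, edgeR adjusted p = 0.000296) and 1.18 (SE 0.25, adjusted p = 0.0046) in Mael+/-. For Dnah2 the extracts gave 1.66, 1.44 and 1.21 in Mael+/- and 1.53, 1.64 and 1.58 in Mael-/- as differences of log2(CPM + 0.5). These differences rest on scaling within each assay and the fitted ratios on scaling over both assays, so their zeros differ. Tekt2 had 0.768 to 2.08 CPM in RNA and 3.22 to 4.4 CPM in footprints of Mael+/-. Its log2 ratio was 1.73 (SE 0.39, edgeR adjusted p = 0.00567), above that of Dnah2 by less than either SE. The RNA level of Tekt2 rests on 21 to 48 counts, and its Mael+/- extracts gave log2 differences of 0.91, 1.95 and 1.29. The airway outer arm chains Dnah9 and Dnah11 and the dynein-2 chain Dync2h1 stood at 0.89, 0.82 and 0.92. Ift172 stood at 0.66 (SE 0.24, edgeR adjusted p = 0.0498), and no longer passed without Mael+/- RNA library 2 or 3 or footprint library 1 or 3 (0.36 to 0.78). In Mael-/- 8 of the 11 heavy chains were higher in footprints, among them Dnah17 (1.07, SE 0.23) and Dnah8 (0.96, SE 0.13), and Dnah7b was lower (-0.29, SE 0.11). Higher in Mael-/- were also Dync2h1, Dync2li1, Ift22, Ift140, Ift172, Bbs2, Bbs5, Rsph9 and Tekt2.

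Lower in footprints were Rsph3b at -2.16 (SE 0.25), Dnal4 at -1.80 (SE 0.15), Rsph3a at -0.89, Bbs1 at -0.77, Ift20 at -0.71, Dnal1 at -0.67 and Ift46 at -0.44, each with an edgeR adjusted p under 0.05. Without Mael+/- RNA library 3 Dnah11 no longer passed (0.77). Without Mael+/- RNA library 1 or 3 or footprint library 1 or 2 Dnah9 no longer passed (0.74 to 0.84), nor did Bbs1 without RNA library 1 or footprint library 2 or 3 (-0.70 to -0.50), nor Rsph3a without footprint library 2 or 3 (-0.88 and -0.73), nor Ift46 without footprint library 3 (-0.38). Rsph3b had 7.5 to 8.93 CPM in RNA and 1.29 to 2.12 CPM in footprints of Mael+/-, and Ift20 had 47.7 to 52.3 CPM and 26.5 to 31.8 CPM. In Mael-/- the ratio was -2.50 for Rsph3b, -1.74 for Dnal4, -1.25 for Rsph3a, -0.77 for Ift20 and -0.63 for Bbs1, in the same direction as in Mael+/-. Dnal4 gave log2 differences of -2.1, -1.72 and -1.71 in the Mael+/- extracts and -1.66, -2.02 and -1.68 in the Mael-/- extracts.

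RNA was counted over the whole mRNA and footprints over coding sequence alone, so the ratio moves with the share of the transcript that codes. That share had a median of 52.8% over all genes, 98.2% over inner arm and 95.7% over outer arm heavy chains, and was 9.72% for Dnal1 and 21.5% for Dnal4. When the ratio was taken relative to the coding share, 12 members passed in Mael+/-, 4 higher and 8 lower, where 49.2% of all genes were called, 27.7% higher and 21.5% lower. Of these, 5 were called in the same direction both ways, Dnah2 (0.69), Tekt2 (adjusted p = 0.0254, edgeR), Rsph3b (-2.61), Rsph3a (-1.48) and Dnal4 (-0.51). Dnal1 and Ift46 turned to 1.77 and 0.52, and 7 genes no longer passed, among them Dnah10 (0.28), Dnah11 (-0.04) and Dync2h1 (0.12). In Mael-/- 22 members passed relative to coding share, 5 higher and 17 lower, where 67.9% of all genes were called, 36.3% higher and 31.6% lower. None of the 5 outer arm chains passed there, and of the 6 inner arm chains 1 (Dnah2) was higher and 3 were lower (Dnah6, Dnah7a and Dnah7b). Rsph3a, Rsph3b, Dnah7a and Dnah7b are the genes with near copies, and a larger share of their coding windows than of their exon windows recurred. The part of this in their ratios was not tested. The members' median ratio in Mael+/- was 0.19 as counted and -0.17 relative to coding share.

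**Figure D4:**
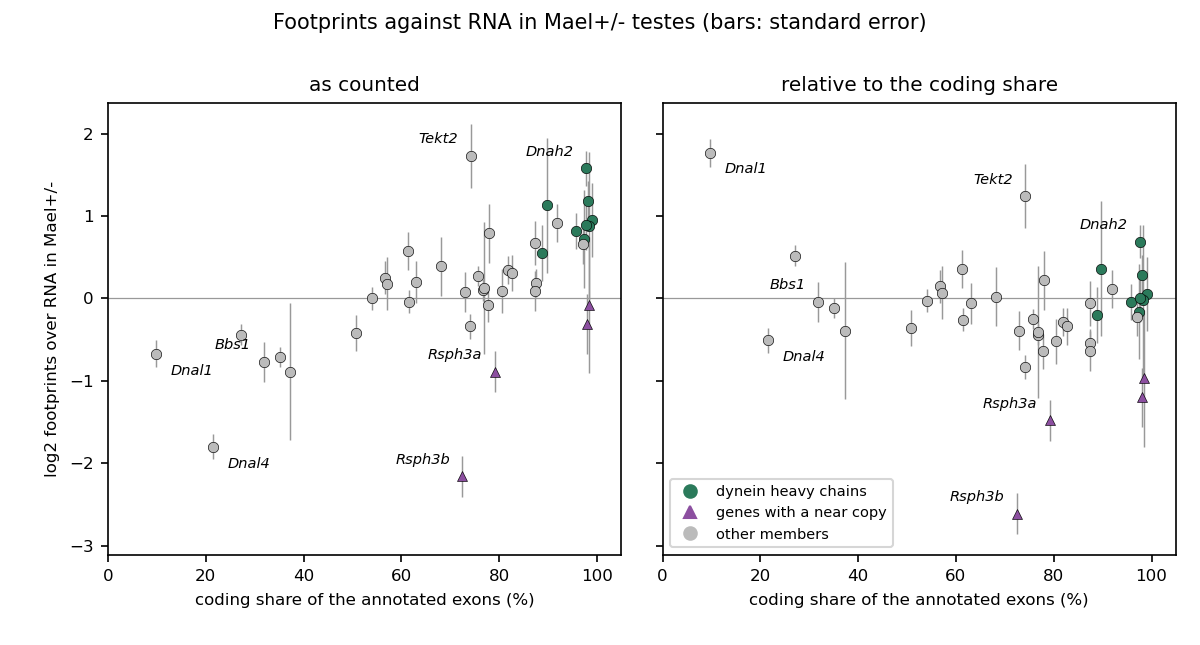
Log2 ratio of footprints to RNA in Mael+/- (with SE) against the percent of the transcript that codes, for the members tested, as counted and relative to coding share. As counted, heavy chains with nearly all of the transcript coding lie mostly above 0 and Dnal1 and Dnal4 below, and relative to coding share Dnal1 lies above 0.

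A further 96 genes of the pathway with other names, in 7 lists, were examined, and 0 of the 86 tested in RNA and 0 of the 79 in footprints passed the edgeR test (17 and 13 at an unadjusted p under 0.05, where 5.4% and 4.33% of all genes were counted). With Mael+/- replicate 1 left out, 2 of 87 passed in RNA and 0 of 79 in footprints, with 10 and 5 at an unadjusted p under 0.05. Of all genes 0.43% and 0.125% passed there, and 6.41% and 6.12% were counted. By DESeq2 2 of 96 genes passed in RNA and 1 of 95 in footprints, against 0.372% and 0.149% of all genes. Median log2 fold changes in RNA were -0.42 for dynein assembly factors, -0.62 for docking proteins, -0.82 for the central pair, -0.19 for other dynein and transport subunits, -0.12 for other Bardet-Biedl and transition zone genes, -0.26 for transcription factors and -0.07 for sheath and fibre proteins. These 7 medians ran without Mael+/- replicate 1 from -0.32 (central pair) to 0.10 (sheath and fibre proteins). Zmynd10, a dynein assembly factor, was named after its values were seen. It had 21.1, 1.43 and 3.32 CPM in Mael+/- RNA and 0.509, 0.0496 and 0.219 CPM in Mael-/- RNA, a log2 fold change of -5.17 with an adjusted p of 0.388 in edgeR and 0.033 in DESeq2. Without Mael+/- replicate 1 it was -3.33, with an adjusted p of 0.00622. Rfx4, a transcription factor of the RFX family also named after its values were seen, had 6.85, 0.732 and 1.28 CPM in Mael+/- and 0, 0.149 and 0.109 CPM in Mael-/- (adjusted p 0.388 in edgeR and 7.78e-05 in DESeq2). Its log2 fold change was -4.84 with all libraries and -3.3 without Mael+/- replicate 1, with an adjusted p of 0.0209 in edgeR.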

How the data were processed

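RNA-seq and ribosome footprint libraries of P16 testes were used as the raw counts per gene that the authors deposited. Per the labels and methods, the authors made RNA libraries with a stranded total RNA kit after rRNA depletion and footprints with MNase, and mapped reads to mm10 with STAR 2.6.0c. They counted RNA over the whole mRNA and footprints over coding sequence with featureCounts (Subread 1.6.4), after removing rDNA reads with Bowtie 1.2.2. The annotation, the strand setting and the handling of multi-mapped reads are not given in the sources used here. Tables of the authors' fold changes and p-values from DESeq2 1.24.0 were not used.

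Here, differences were fitted in edgeR 4.0.16 under R 4.3.3 (quasi-likelihood F-test, TMM scaling, filterByExpr, Benjamini-Hochberg adjustment over all genes tested). TMM scaling was within each assay, except for footprints against RNA, where both assays of a genotype were scaled together. DESeq2 1.42.0, other size factors, no filter, a mean of at least 50 counts, the replicate number as a block, the coding share of the transcript and the omission of libraries were alternatives. The script was tested on simulated counts. CPM used the TMM-scaled gene totals. Lengths, coordinates and promoters came from RefSeq (GRCm38.p6, the patched mm10 assembly), in which all 48 members matched by symbol.

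RNA and footprints of a number came from the same extract, per the methods, and their deviations from the group means correlated at 0.61 to 0.77 in Mael+/- and 0.24 to 0.25 in Mael-/- over 13448 genes. Values per library were given for members called in any of 5 contrasts (up to 5 each way), the 2 members with the most RNA in each role and the 3 with the largest change each way among those with at least 20 counts. Further members were named after their values were seen. The members, lists and tests were chosen with earlier results of these data known.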

Additional observations from a re-analysis of the deposited data

How the results depend on the processing

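Counts limit the low genes: Rsph4a, Tekt3 and Tekt4 were too low for the main test, and Dnah6 had 2 and 7 footprint counts in 2 Mael+/- libraries. With 3 extracts per group and an atypical Mael+/- replicate 1, the genotype tests have wide intervals. In RNA and in footprints the edgeR test called 0 members. DESeq2 called 1 in each, the replicate number as a block called 2 in each, against 0.34% and 0.17% of all genes (Dnah6 at 2.34 and Dnah7a at -2.01 in RNA, Tekt1 at -2.57 and Dnah7a at -2.55 in footprints), and leaving out a library called 0 to 1 in each. The labels do not say whether a replicate number pairs extracts across the genotypes. Deviations of same-numbered libraries of the genotypes correlated at -0.01 to 0.22 in RNA and 0.04 to 0.20 in footprints. In these assays 3 and 4 of 6 libraries correlated best with their own number. These weak correlations do not settle whether the extracts were paired. Leaving out a library moved the members' median from -0.30 to -0.02 in RNA, from -0.26 to 0.01 in footprints and from -0.15 to 0.27 in translation efficiency. It turned the direction of 15 of 45 members in RNA and 21 of 42 in footprints (12 and 15 of them without Mael+/- replicate 1), of 35 of 42 in translation efficiency, and of 16 and 6 of 43 in footprints against RNA in Mael+/- and Mael-/-, among them Bbs12 in footprints with a range from -0.08 to 0.13.

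For footprints against RNA in Mael+/-, 14 members were called, and 31 with the extract as a block, 26 with the block and coding share together, and 27 with the block and without both libraries of Mael+/- extract 1. These were 32.6%, 72.1%, 60.5% and 62.8% of the members tested, against 48.1%, 69.4%, 69.6% and 63.4% of all genes. The last 2 alternatives were chosen after seeing the data. Leaving out a library gave 10 to 19 calls (21.7% to 45.2% of the members tested, against 39.0% to 47.5% of all genes) and a median of -0.10 to 0.42. The median was -0.17 relative to coding share and -0.18 with the block as well. In Mael-/- it was -0.05 and -0.06. Dnah9 in Mael+/- turned to -0.00057 relative to coding share, and Bbs1 in Mael-/- to 0.09 with and without the block. These turns follow from the offset for coding length. Of the 96 other pathway genes, the block called 3 in RNA (Zmynd10, Spag6 and Rfx4), 1 in footprints (Zmynd10) and 52 in footprints against RNA in Mael+/-, against 0, 0 and 17 without it. Of all genes it called 0.34%, 0.17% and 69.4%, against 0.116%, 0.0593% and 48.1% without it. For the members the block changed no other count of calls by over 1.5 times. Of the other values of single genes, 364 were of the same direction and side of the threshold, 27 lost and 8 gained a call. The cause of the remaining moves was not tested.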
